A study of Mus musculus with 8 samples.

Results

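Regulatory T cells (Tregs) restrain other lymphocytes through several sets of effector molecules, and 9 genes that encode such molecules were followed here in differentiating mouse Tregs with and without *Tdrd3*. The genes were chosen by name: *Nt5e*, *Entpd1*, *Tgfb1*, *Lrrc32*, *Itgav*, *Itgb8*, *Ebi3*, *Il10* and *Gzmb*. The gene count table held rows for 8 of the 9 names among its 11911 genes, and all 8 passed the filter on low counts that left 11317 genes for testing. *Il10*, the gene of the suppressive cytokine IL-10, had no row and was not analysed here.

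The data were 8 RNA-seq libraries from naïve CD4+ T cells of the spleen, cultured for 36 hours toward induced Tregs with TGF-β, anti-CD3 and anti-CD28 while antibodies blocked IFN-γ and IL-4. The 4 libraries labelled WT came from Foxp3YFP-Cre mice, and the 4 labelled KO came from TDRD3fl/fl/Foxp3YFP-Cre mice. Both genotypes were on the C57BL/6J background, and both carried the Cre recombinase, fused to yellow fluorescent protein, under the control of the *Foxp3* locus. Cre is made only once *Foxp3* is transcribed, so this model is designed to delete *Tdrd3* in *Foxp3*-expressing cells, and how many cells of each KO culture had lost it was not measured in these data. The sources used here mention no enrichment of the YFP+ fraction for RNA and give no age for the mice. The study's methods describe the replicates as coming from independent mice, but for another number of replicates than the 4 per genotype in the labels. In cultures of this kind, fewer cells expressing a gene and less RNA per cell cannot be told apart.

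The counts of the listed genes summed to between 13258239 and 16001676 per library. Values are given below as CPM, counts scaled to 1000000 per library with edgeR's TMM factors, and 3 counts corresponded to 0.188 to 0.225 CPM. *Tdrd3* itself was at 18.8, 15.1, 9.95 and 17.7 CPM in WT replicates 1 to 4 and at 13.7, 10.7, 12.9 and 11.1 CPM in KO replicates 1 to 4. The library labelled WT replicate 3 therefore had a lower *Tdrd3* value than any KO library. Its gap to KO replicate 2 was about the size of the error from counting alone (6.8% in WT and 7.6% in KO). The difference between genotypes did not pass the test (log2 fold change, KO minus WT, -0.35 ± 0.155 (SE), edgeR quasi-likelihood test, unadjusted P = 0.0370, adjusted p = 0.496). These counts cover the gene as a whole in the whole culture, so they do not measure the deletion itself. The study reported the deletion by immunoblot and qPCR in YFP+ Tregs of the spleen, and lower *Tdrd3* RNA by qPCR in induced Tregs. On the 500 most variable genes, KO replicates 1 and 4 formed a branch of their own in average-linkage clustering, apart from the other 6 libraries.

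Markers of CD4+ T cells (7 of 7 in the table) summed to 1840 to 1948 CPM in WT and 1785 to 1889 CPM in KO libraries, and those of Tregs (8 of 8) to 3865 to 4033 CPM and 3652 to 3775 CPM. *Foxp3*, the transcription factor that defines Tregs, was at 117, 122, 107 and 93.8 CPM in WT and 77.2, 105, 93.2 and 78.1 CPM in KO replicates 1 to 4, a log2 fold change of -0.31 ± 0.0880 (SE) that did not pass the test over all genes (edgeR, adjusted p = 0.152). No marker of platelets or erythroid cells was in the table (0 of 6). Markers of B cells (3 of 6 in the table) summed to at most 3.71 CPM in any library, those of myeloid cells (2 of 8) to at most 2.11 CPM, and those of dendritic cells (2 of 6) to 11.8 to 17.1 CPM. The markers behind these sums were *Cd79a*, *Cd79b* and *Pax5* for B cells, *Lyz2* and *Cd68* for myeloid cells, and *Zbtb46* and *H2-Ab1* for dendritic cells. *Ms4a1*, *Csf1r*, *Itgam* and *Itgax*, which were also listed for these cells, had no row. The deposited counts were filtered, so a missing row is not a count of 0.

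The molecules act by different routes. CD39, the product of *Entpd1*, removes phosphates from extracellular ATP and ADP, and CD73, the product of *Nt5e*, turns the resulting AMP into adenosine, which inhibits T cells through the receptor encoded by *Adora2a*. TGF-β1, encoded by *Tgfb1*, is secreted in a latent form that GARP, the product of *Lrrc32*, holds on the Treg surface, and the integrin αvβ8, made of the products of *Itgav* and *Itgb8*, releases the active cytokine. *Ebi3* encodes a subunit shared by the cytokines IL-35 and IL-27, and *Gzmb* encodes granzyme B, a protease that is delivered into target cells.

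The 250 bases before the start of the main transcript are printed for the genes with the smallest p-values in each direction, *Lrrc32* (lower in KO) and *Nt5e* (higher in KO). The windows are given 5′ to 3′ on the gene's own strand, with capitals marking matches to CACCC, read on both strands as CACCC or GGGTG, the core bound by KLF factors. The *Lrrc32* window lies at chr7:98138654-98138903 and the *Nt5e* window at chr9:88208839-88209088, both on the plus strand of GRCm39. The canonical *Lrrc32* transcript starts downstream of the gene's listed start, so its window lies within the span of the gene.
Lrrc32: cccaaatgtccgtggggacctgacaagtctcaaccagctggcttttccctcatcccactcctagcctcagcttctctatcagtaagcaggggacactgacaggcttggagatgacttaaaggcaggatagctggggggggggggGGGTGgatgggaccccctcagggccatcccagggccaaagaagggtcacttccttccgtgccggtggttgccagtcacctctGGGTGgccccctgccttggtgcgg
Nt5e: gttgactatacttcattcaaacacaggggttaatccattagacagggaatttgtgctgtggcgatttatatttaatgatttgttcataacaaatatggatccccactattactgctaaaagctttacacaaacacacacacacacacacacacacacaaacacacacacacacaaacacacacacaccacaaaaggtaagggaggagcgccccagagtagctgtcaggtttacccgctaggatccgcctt
The *Lrrc32* window is rich in G and C (61.6%) and holds 2 matches, 106 and 24 bases before the start. The *Nt5e* window is 42.8% G and C, contains a run of alternating C and A, and holds no match. CACCC occurs in 55.6% of the 11910 windows of listed genes, so its presence is common. Among the other windows, *Tgfb1* holds 3 matches, *Itgav*, *Itgb8*, *Ebi3* and *Gzmb* hold 1 each, and *Entpd1* holds 0. The forkhead core TGTTTAC, found in 2.35% of all windows, was in none of the 8, and the SMAD core CAGAC, found in 41.6%, had 1 match in *Entpd1* and 1 in *Ebi3*. No searched motif overlaps another. These matches describe letters in a window and say nothing about binding.

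None of the 8 genes passed the test between genotypes (edgeR quasi-likelihood test, adjusted p below 0.05 over all genes), where 0.265% of all tested genes did. At an unadjusted P below 0.05, 3 of the 8 differed, against 9.3% of all tested genes. *Lrrc32* was the 1 member lower in KO, beside 4.91% of all genes, and *Nt5e* and *Ebi3* were the 2 higher in KO, beside 4.38%. *Lrrc32* was also the 1 gene of the 8 whose KO values all lay on one side of the WT values, beside 4.89% of all genes. The median log2 fold change of the 8 genes was -0.07, with 5 below and 3 above 0, and that of all tested genes was 0.0013. Without KO replicates 1 and 4, a choice made after seeing the data, 1 of the 8 (*Lrrc32*) had an unadjusted P below 0.05.

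**Figure D1:**
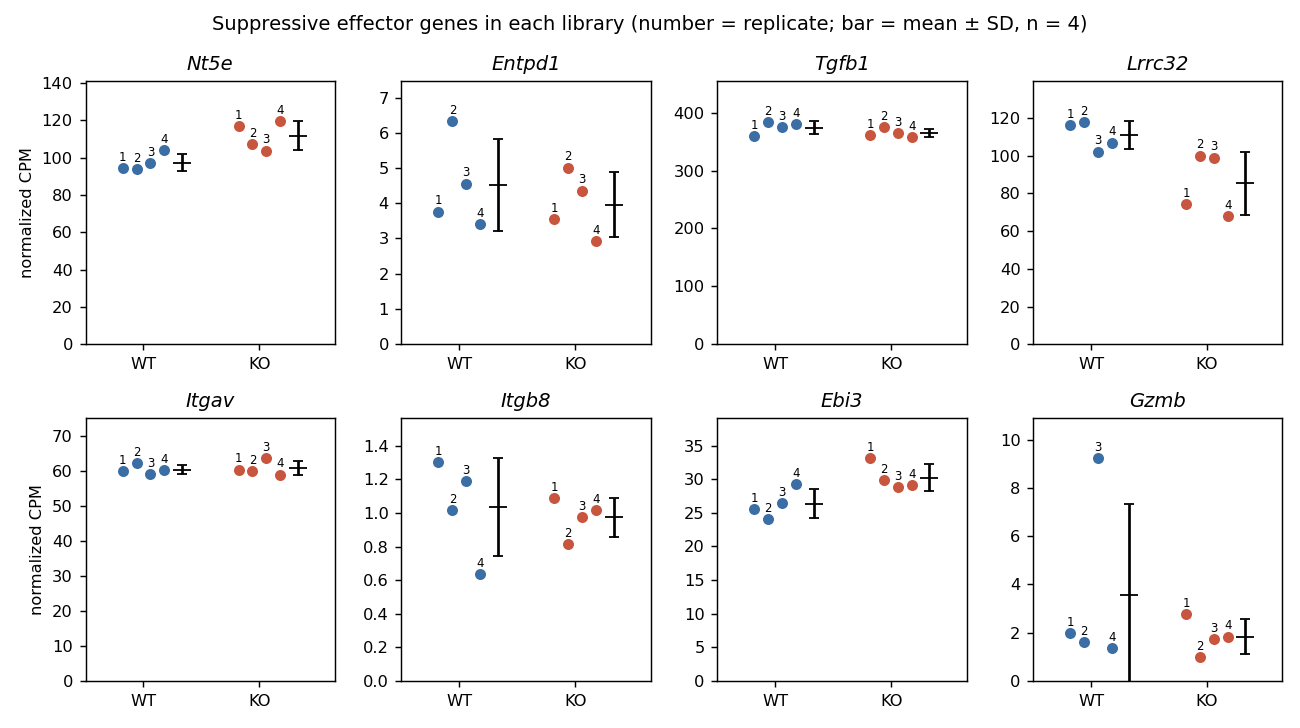
Normalized CPM of the 8 genes in each library, WT in blue and KO in red, numbered by replicate, with the mean ± SD (n = 4) beside each group and each axis starting at 0, where the *Gzmb* WT bar is cut. The 4 KO values of *Lrrc32* lie below all 4 WT values, and the *Gzmb* mean of WT is carried by replicate 3 at 9.25 CPM.

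*Nt5e* (ENSMUSG00000032420, chr9:88209250-88254145, plus strand, GRCm39), the gene of the adenosine-producing enzyme CD73, was at 94.4, 93.8, 97.1 and 104.0 CPM in WT replicates 1 to 4 and at 116.9, 107.1, 103.8 and 119.6 CPM in KO replicates 1 to 4. The KO libraries were higher than the WT libraries except that KO replicate 3 lay just under WT replicate 4. The means were 97.3 ± 4.69 CPM in WT and 112 ± 7.59 CPM in KO (SD, n = 4), an increase of 14.9% (95% interval 6.22% to 24.3%). On the log2 scale this was 0.20 ± 0.0542 (SE) with an unadjusted P of 0.00153, which did not pass after adjustment (edgeR, adjusted p = 0.139). A two-sided exact permutation test over the 70 arrangements of the libraries gave p = 0.0571, where 0.0286 is the smallest value it can give. The counts behind these values ran from 1289 to 1761 per library, so counting error (2.69% in WT and 2.49% in KO) was below the spread between libraries.

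*Entpd1* (chr19:40600810-40730046, plus strand), the gene of CD39, which acts one step before CD73, was detected at a low level. Its values were 3.77, 6.33, 4.56 and 3.40 CPM in WT and 3.56, 5.01, 4.36 and 2.92 CPM in KO, from 43 to 87 counts per library. The genotypes overlapped over most of their range, and replicate 2 was the highest and replicate 4 the lowest in each. The means were 4.51 ± 1.30 and 3.96 ± 0.915 CPM (SD, n = 4), and the log2 fold change was -0.18 ± 0.231 (SE, edgeR, adjusted p = 0.889), with a 95% interval of -0.67 to 0.30. The spread between libraries (coefficient of variation 28.9% in WT and 23.1% in KO) was larger than counting error alone gives (12.5% and 13.2%). Its exons share 99 bases with *Gm41846* on the opposite strand, and strandedness is not given in the sources used here, so reads of the pair cannot be told apart there.

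Of 23 further genes of ATP and adenosine handling (receptors, transporters, and enzymes that make or remove adenosine and related nucleotides), 17 were in the table and all 17 were tested. None passed in either direction, and the median log2 fold change was 0.03. At an unadjusted P below 0.05, 1 was lower and 1 was higher in KO, beside 4.91% and 4.38% of all tested genes. The lower was *P2rx7*, an ATP-gated ion channel, at 45.7 ± 3.70 CPM in WT and 39.2 ± 3.04 CPM in KO (log2 fold change -0.22 ± 0.0732 (SE), edgeR, adjusted p = 0.273). The higher was *Cd38*, an enzyme that consumes NAD, at 8.59 ± 2.22 and 11.7 ± 3.10 CPM (log2 fold change 0.44 ± 0.185 (SE), edgeR, adjusted p = 0.464). *Adora2a*, the adenosine receptor gene, was at 21.0 ± 1.42 CPM in WT and 22.4 ± 0.501 CPM in KO (edgeR, adjusted p = 0.840). It is named here for its role after its values were seen, as are *Nrros*, *Itgb1*, *Itgb3*, *Itgb5* and *Il12a* below.

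*Tgfb1* (chr7:25386427-25404502, plus strand), the gene of the cytokine itself, had the highest level of the 8 and one of the smallest spreads. It was at 359, 384, 375 and 380 CPM in WT and 361, 375, 365 and 358 CPM in KO, from 4860 to 5989 counts per library. The genotypes overlapped, with means of 374 ± 11.0 and 365 ± 7.50 CPM (SD, n = 4). The log2 fold change was -0.04 ± 0.0375 (SE, edgeR, adjusted p = 0.857), and its 95% interval was -7.65% to 2.97%. The culture medium contained TGF-β protein, which is not measured by these libraries.

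*Lrrc32* (ENSMUSG00000090958, chr7:98138490-98151388, plus strand), the gene of GARP, the anchor that holds latent TGF-β1 on the cell, had the smallest p-value of the 8. Its values were 116.3, 117.7, 102.1 and 106.9 CPM in WT replicates 1 to 4 and 74.3, 99.97, 98.97 and 67.8 CPM in KO replicates 1 to 4. Every KO library lay below every WT library, KO replicates 2 and 3 narrowly so and KO replicates 1 and 4 by a wide gap. The means were 111 ± 7.49 CPM in WT and 85.3 ± 16.6 CPM in KO (SD, n = 4), a difference of -23.0% (95% interval -32.8% to -11.7%). Its log2 fold change was -0.38 ± 0.0942 (SE) with an unadjusted P of 7.66e-04, rank 85 of all tested genes, and it did not pass after adjustment (edgeR, adjusted p = 0.102). The exact permutation test, two-sided, gave p = 0.0286, the smallest it can give with 4 libraries against 4.

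The *Lrrc32* call depended on the libraries and the model. It passed the test in 3 of 16 alternatives: limma-voom with library quality weights (adjusted p = 0.0274), edgeR with the replicate number as a block (adjusted p = 0.0178) and edgeR without KO replicate 2 (adjusted p = 0.00947). With DESeq2 it did not pass (adjusted p = 0.321). Over all 16 the adjusted p ranged from 0.00947 to 0.9998. The log2 fold change was -0.16 without KO replicates 1 and 4, the libraries that formed their own branch (edgeR, unadjusted P = 0.0339), and -0.41 without the library labelled WT replicate 3 (edgeR, adjusted p = 0.115). It was below 0 in each of the 16. Of the 8 Treg markers, 4, *Foxp3* among them, were lower in KO at an unadjusted P below 0.05, beside 4.91% of all tested genes. None of these markers passed after adjustment in the edgeR fit with genotype alone on all 8 libraries. *Foxp3* passed in 4 of 16 alternatives (edgeR with the replicate block, without WT replicate 4 and without KO replicate 2, and voom with quality weights, adjusted p from 0.0105 to 0.0416). Its adjusted p was 0.425 with DESeq2 and reached 0.9998 over all 16. The summed Treg markers did not overlap between genotypes, but this rested on *Il2ra*: without it the sums were 1746, 1709, 1664 and 1594 CPM in WT and 1628, 1606, 1640 and 1627 CPM in KO, with WT replicate 4 below every KO library. The part of the Treg markers in the *Lrrc32* value was not tested.

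**Figure D2:**
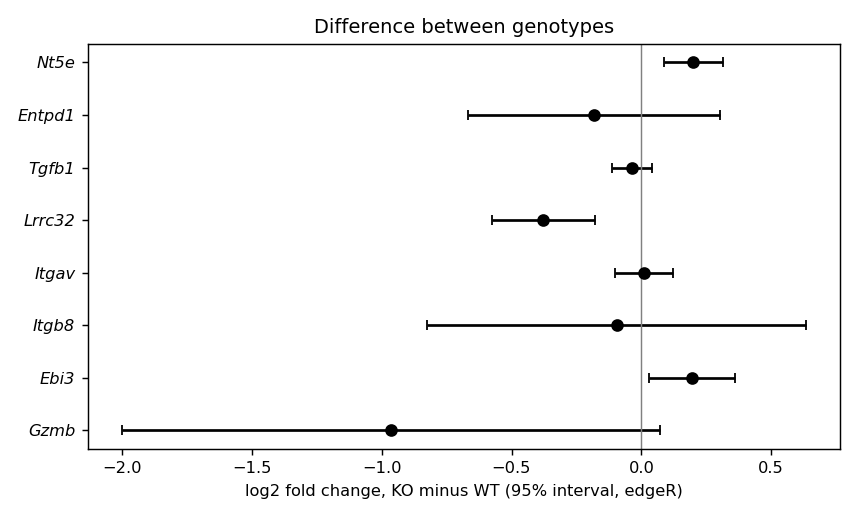
Log2 fold change of the 8 genes, KO minus WT, with the 95% interval from the edgeR fit on all 8 libraries. The intervals of *Lrrc32*, *Nt5e* and *Ebi3* exclude 0, those of *Tgfb1* and *Itgav* are the narrowest, and those of *Gzmb* and *Itgb8* are the widest.

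The profile of *Lrrc32* across the libraries was shared by a few other genes. Among 11316 other tested genes, the smallest root-mean-square distances to its centred log2 CPM over the 8 libraries belonged to *Itga6*, an integrin subunit (0.0681), *Tmem86b*, an enzyme that degrades lysoplasmalogens (0.0986), and *Ttyh3*, a Tweety family membrane protein (0.102). *Lrrc32* itself varied by 0.271 on the same scale around its mean, so these genes followed it closely. *Itga6* was at 117, 120, 103 and 103 CPM in WT and 79.9, 105, 92.2 and 72.7 CPM in KO replicates 1 to 4. *Foxp3* ranked 9 of the 11316, at 0.109, and like *Lrrc32* it was lowest in KO replicates 1 and 4. These are likenesses of 8 values that share depth and genotype, and they carry no test.

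*Itgav* (chr2:83554741-83637260, plus strand), the gene of the αv chain, was at 60.0, 62.2, 59.0 and 60.1 CPM in WT and 60.4, 59.99, 63.7 and 58.9 CPM in KO. These values overlapped completely, and their coefficient of variation, 2.21% in WT and 3.40% in KO, was no larger than about what counting alone gives (3.42% and 3.38%). The means were 60.4 ± 1.34 and 60.8 ± 2.07 CPM (SD, n = 4), with a log2 fold change of 0.0096 ± 0.0537 (SE, edgeR, adjusted p = 0.972). The 95% interval of the difference was -6.88% to 8.82%. Its exons share 634 bases with *Gm13684* on the opposite strand.

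*Itgb8* (chr12:119121757-119202537, minus strand), the gene of the β8 chain that pairs with αv to activate TGF-β, was near the floor. Its libraries held 19, 14, 17 and 9 counts in WT and 15, 13, 13 and 15 counts in KO, or 1.04 ± 0.291 and 0.975 ± 0.116 CPM (SD, n = 4). The 95% Poisson interval, which covers counting error only, ran from 4.12 to 17.1 counts for the lowest library and from 11.4 to 29.7 counts for the highest, so even these overlapped. The log2 fold change was -0.10 ± 0.349 (SE, edgeR, adjusted p = 0.960), with a 95% interval of -0.82 to 0.63.

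Of 20 further genes of the latent TGF-β route (the other TGF-β cytokines, binding proteins, convertases, proteases and β chains), 13 were in the table and 12 were tested. None passed, and the median log2 fold change was -0.03. At an unadjusted P below 0.05, 0 were lower and 1 was higher, beside 4.91% and 4.38% of all tested genes. The higher was *Furin*, the convertase that cleaves the TGF-β precursor, at 611 ± 27.7 CPM in WT and 664 ± 48.9 CPM in KO (log2 fold change 0.12 ± 0.0486 (SE), edgeR, adjusted p = 0.441). *Adam17*, a protease that sheds surface proteins, had the smallest P of those below 0, at 95.9 ± 4.15 and 89.4 ± 2.82 CPM (log2 fold change -0.10 ± 0.0492 (SE), edgeR, adjusted p = 0.549).

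Levels can be compared between genes only per length of transcript, taken here as CPM per kb of the GENCODE canonical transcript and averaged over all 8 libraries. On this scale *Tgfb1* stood at 167, above 97.5% of tested genes. *Nt5e* (25.2), *Ebi3* (24.5) and *Lrrc32* (21.4) followed, then *Itgav* (8.19), *Gzmb* (1.87), *Entpd1* (0.736) and *Itgb8* (0.120). In WT libraries *Lrrc32* (24.2 ± 1.64), *Nt5e* (23.4 ± 1.13) and *Ebi3* (22.8 ± 1.91) differed by less than their standard deviations, and in KO libraries *Nt5e* (26.9 ± 1.83) and *Ebi3* (26.2 ± 1.74) did, with *Lrrc32* lower at 18.6 ± 3.63 (CPM per kb, SD, n = 4). The order of these 3 depends on the length used: per kb of all annotated exons *Lrrc32* was at 20.7, *Ebi3* at 13.1 and *Nt5e* at 11.9.

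The partners within a route were thus far from equal at the RNA level. *Nt5e* exceeded *Entpd1* by 34.2 times, *Tgfb1* exceeded *Lrrc32* by 7.79 times, and *Itgav* exceeded *Itgb8* by 68.5 times, each per kb of the canonical transcript. Per kb of all annotated exons the same ratios were 20, 3.52 and 55. αv also pairs with other β chains, and of those in the table *Itgb1* was at 46.4, *Itgb3* at 2.81 and *Itgb5* at 0.935 CPM per kb, all above *Itgb8*. *Nrros*, a relative of GARP that also anchors latent TGF-β1, was at 14.4 CPM per kb. RNA per kb is not an amount of protein.

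**Figure D3:**
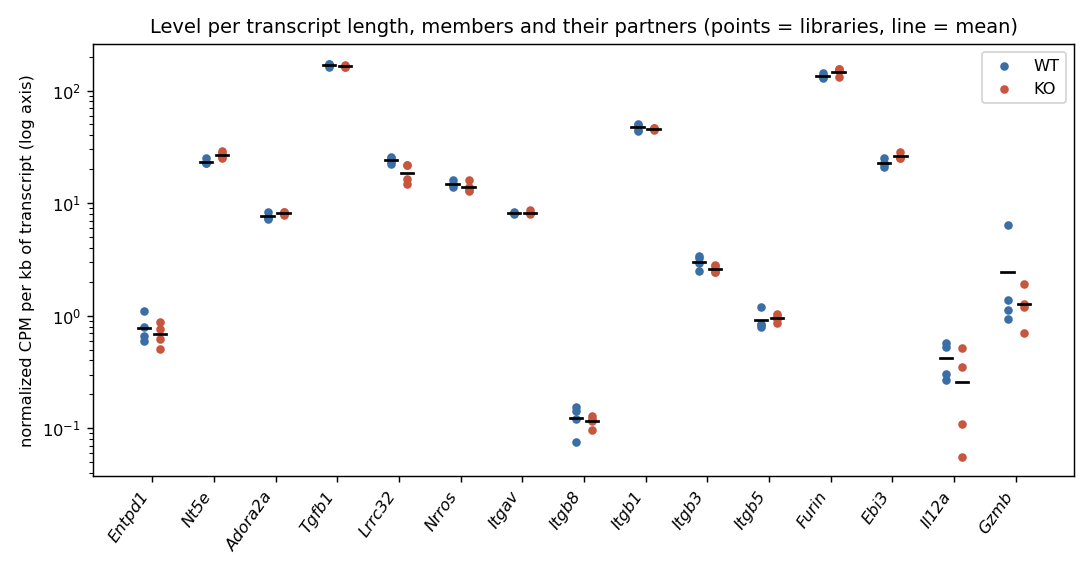
Level per transcript length (normalized CPM per kb of the canonical transcript, logarithmic axis) of the 8 genes and 7 partner genes, 1 point for each library and a line at the mean of each genotype. *Tgfb1* and *Furin* are at the top, and *Nt5e*, *Lrrc32*, *Ebi3* and *Nrros* lie between 10 and 30. All libraries of *Itgb8* and *Il12a* are below 1, as are the means of *Entpd1* and *Itgb5*.

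*Ebi3* (chr17:56259640-56264022, plus strand), the shared cytokine subunit, was at 25.6, 24.1, 26.5 and 29.3 CPM in WT and 33.2, 29.8, 28.8 and 29.1 CPM in KO. WT replicate 4 lay above KO replicates 3 and 4, and the other WT libraries lay below every KO library. The means were 26.4 ± 2.20 and 30.2 ± 2.01 CPM (SD, n = 4), an increase of 14.6% (95% interval 2.14% to 28.5%). On the log2 scale it came to 0.20 ± 0.0792 (SE) with an unadjusted P of 0.0227, which did not pass after adjustment (edgeR, adjusted p = 0.433). The exact permutation test gave p = 0.0857. Its unadjusted P was below 0.05 in 12 of 16 alternatives, and was 0.0550 without WT replicate 1, 0.0778 without WT replicate 2, 0.0923 without KO replicate 1 and 0.139 without KO replicates 1 and 4 (edgeR). The exons of *Ebi3* share 1102 bases with *Gm16712* on the opposite strand, whose reads may be included.

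IL-35 is built from the *Ebi3* product and the p35 chain encoded by *Il12a*. *Il12a* had 1 to 11 counts per library, failed the filter and was not tested, and *Ebi3* exceeded it by 72.4 times per kb of the canonical transcript and by 51.2 times per kb of all annotated exons. *Il27*, which encodes the chain that joins the *Ebi3* product in IL-27, had no row. For 19 further genes of IL-10 and IL-35 signalling and control, 17 were in the table and 16 were tested. Of these, 1 passed and was higher (*Bhlhe40*) and none passed as lower, beside 0.265% of all tested genes in either direction. The median log2 fold change was -0.05. At an unadjusted P below 0.05, 4 were lower and 3 higher, beside 4.91% and 4.38% of all tested genes.

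*Bhlhe40* encodes a transcription factor that represses *Il10* in T helper cells. It was at 502, 499.9, 488 and 547 CPM in WT and 684, 558, 620 and 687 CPM in KO, so the genotypes did not overlap. It rose by a log2 fold change of 0.32 ± 0.0558 (SE, edgeR, adjusted p = 0.0148). The call held in 10 of 16 alternatives, with an adjusted p from 6.81e-05 to 0.844, and was lost when WT replicate 1, 2 or 3 or KO replicate 1 or 4 was left out (0.0566 to 0.115) or KO replicates 1 and 4 were left out together (0.844). *Il12rb2*, a receptor chain used by IL-12 and IL-35, was at 23.6 ± 4.89 CPM in WT and 14.8 ± 2.75 CPM in KO (log2 fold change -0.67 ± 0.141 (SE), edgeR, adjusted p = 0.0503). It passed in 6 of 16 alternatives, DESeq2 among them (adjusted p = 0.0040), with an adjusted p from 0.00298 to 0.9998 over all 16.

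*Gzmb* (chr14:56496295-56499717, minus strand), the gene of granzyme B, was low in all libraries but the one labelled WT replicate 3. The libraries held 29, 22, 132 and 19 counts in WT and 38, 16, 23 and 27 counts in KO, or 1.99, 1.60, 9.25 and 1.35 CPM and 2.76, 1.00, 1.73 and 1.83 CPM. The third WT library exceeded the mean of the other 3 WT libraries by 5.63 times, and without it the WT mean was 1.64 ± 0.322 CPM (SD, n = 3), within the KO range. The means over all libraries were 3.55 ± 3.81 and 1.83 ± 0.720 CPM (SD, n = 4), with a log2 fold change of -0.96 ± 0.495 (SE, edgeR, adjusted p = 0.585). Without WT replicate 3 the log2 fold change was 0.14 (edgeR, adjusted p = 0.932), of the opposite sign. *Gzmb* lies 31.2 Mb from *Tdrd3* on the same chromosome, 14.

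*Cd8a*, a defining marker of CD8 T cells, which make granzyme B when activated, was high in the same library. It was at 1.37, 0.873, 11.3 and 1.06 CPM in WT and 0.436, 0.564, 1.13 and 1.15 CPM in KO, so WT replicate 3 exceeded the mean of the other WT libraries by 10.2 times. The 2 CD8 markers, *Cd8a* and *Cd8b1*, summed to 7.72 to 21.8 CPM in WT and 6.68 to 8.35 CPM in KO, with the maximum in WT replicate 3. *Cd8b1* alone was also highest in that library, but it stood out far less than *Cd8a*. It was at 8.56, 7.20, 10.51 and 6.66 CPM in WT replicates 1 to 4 and at 5.64 to 7.20 CPM in KO. The B cell marker *Pax5*, which was not tested, also peaked in WT replicate 3, with 23 counts against 0 to 6 in the other libraries. The other B cell markers with a row did not peak there. *Cd79a* had 8 counts in WT replicate 3 and its maximum, 13, in WT replicate 4. *Cd79b* had 22 counts in WT replicate 3 and 12 to 27 over all libraries. NK cell markers (3 of 7 in the table) summed to 3.47 to 4.87 CPM in WT and 3.70 to 5.08 CPM in KO, and were at 4.28 CPM in WT replicate 3, while *Ncr1*, *Klrb1c*, *Gzma* and *Prf1* had no row. The part of CD8 T cells in the *Gzmb* value was not tested.

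**Figure D4:**
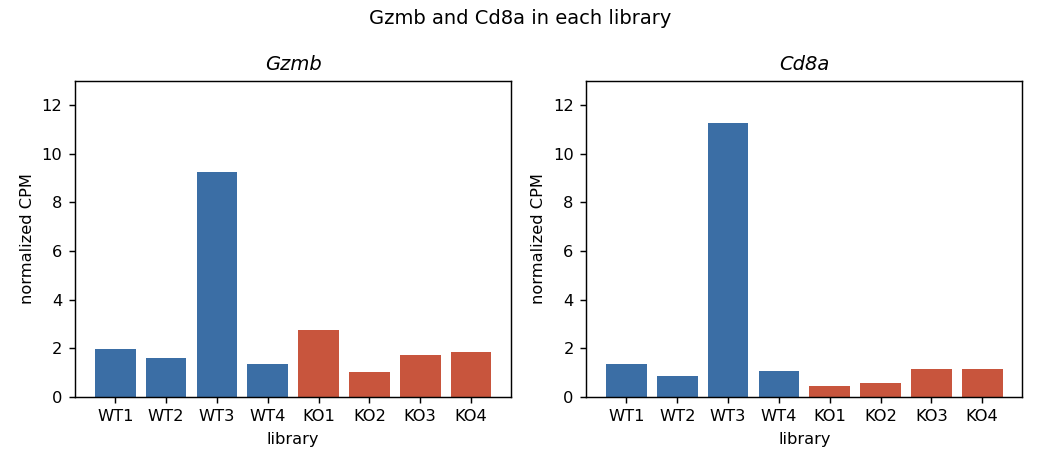
Normalized CPM of *Gzmb* and *Cd8a* in each of the 8 libraries, WT in blue and KO in red, as bars from 0. Both genes stand out in WT replicate 3, at 9.25 CPM and 11.3 CPM, and stay below 3 CPM elsewhere.

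Of 18 further genes of the granzyme route (other granzymes, perforin, granule proteins, secretion factors and inhibitors), 11 were in the table and 10 were tested. Of these, 1 passed, *Serpinb9*, beside 0.265% of all tested genes in either direction, and the median log2 fold change was -0.02. At an unadjusted P below 0.05, 3 were lower and 2 higher, beside 4.91% and 4.38% of all tested genes. *Serpinb9* encodes the intracellular inhibitor that protects cells from granzyme B. It was at 23.8, 22.8, 23.2 and 25.2 CPM in WT and 16.9, 20.2, 16.6 and 15.7 CPM in KO, so the genotypes did not overlap, and it fell by 0.45 on the log2 scale (SE 0.0914, edgeR, adjusted p = 0.0438). The call held in 8 of 16 alternatives, with an adjusted p from 0.00438 to 0.948, and was lost without KO replicates 1 and 4 (0.948) and when any library other than KO replicate 2 was left out. *Srgn*, the proteoglycan serglycin that packs granzymes in granules, was at 44.2 ± 4.60 CPM in WT and 56.7 ± 6.93 CPM in KO (log2 fold change 0.36 ± 0.0841 (SE), edgeR, adjusted p = 0.0823), and it passed in 5 of 16 alternatives (adjusted p from 0.0194 to 0.9998).

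Of 18 other molecules with suppressive roles, such as inhibitory receptors and secreted lectins, 15 were in the table and all 15 were tested. None passed, and the median log2 fold change was -0.03. At an unadjusted P below 0.05, 1 was lower and 2 were higher, beside 4.91% and 4.38% of all tested genes. The lower was *Il2ra*, the high-affinity chain of the IL-2 receptor, at 2268 ± 78.3 CPM in WT and 2076 ± 67.5 CPM in KO (log2 fold change -0.13 ± 0.0360 (SE), edgeR, adjusted p = 0.152), and it passed in 1 of 16 alternatives, DESeq2 (adjusted p from 0.0496 to 0.9998 over all). *Il1rn*, which encodes the antagonist of the IL-1 receptor, was the higher gene with the smaller P, at 2.46 ± 1.28 and 6.49 ± 1.57 CPM (log2 fold change 1.40 ± 0.300 (SE), edgeR, adjusted p = 0.0558), and it passed in 6 of 16 alternatives (adjusted p from 0.00259 to 0.9998). Over the 5 lists, 2 of 70 tested genes passed, beside 0.265% of all tested genes.

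The 8 genes did not follow a common order across the libraries. WT replicate 2 was the highest WT library in 4 of the 8 genes and the lowest in 2, and WT replicate 4 was the lowest in 3 and the highest in 2. KO replicate 4 was the lowest KO library in 4 genes and the highest in 1, *Nt5e*, and KO replicate 1 was the highest in 3 and the lowest in 0. KO replicates 1 and 4, apart from the rest in clustering, held the lowest *Lrrc32* and the highest *Nt5e* of all 8 libraries.

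**Figure D5:**
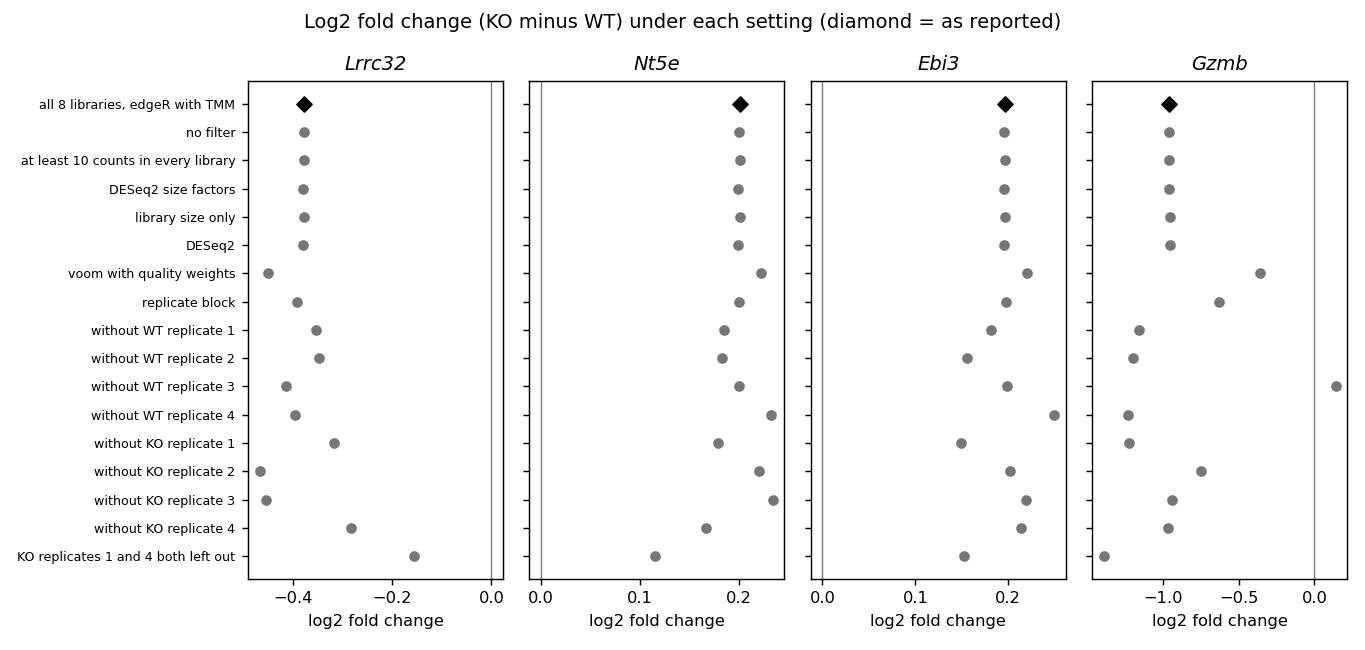
Log2 fold change (KO minus WT) of *Lrrc32*, *Nt5e*, *Ebi3* and *Gzmb* with all 8 libraries (diamond) and under 16 alternatives (circles), each panel on its own axis with a line at 0. *Lrrc32* stays below 0 and *Nt5e* and *Ebi3* above it throughout, while *Gzmb* crosses to 0.14 without WT replicate 3.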

How the data were processed

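RNA was depleted of ribosomal RNA. Per the study's methods, the authors aligned reads to GRCm39 with STAR 2.7.8a in Partek Flow, divided reads among genes by expectation-maximization and deposited estimated counts per gene, filtered and not normalized. Of its values 43% are not whole (farther than 1e-09 from an integer), and the lowest gene reaches 10 counts in its highest library. Strandedness and annotation version are not given in the sources used here. The methods state another number of replicates than the labels, which give 4 per genotype and were followed. The authors' own test was DESeq2.

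Estimated counts were rounded, filtered (filterByExpr, minimum count 10), normalized by TMM and tested for genotype with the two-sided quasi-likelihood F-test of edgeR 4.0.16 (R 4.3.3), Benjamini-Hochberg adjusted over 11317 genes, with passing at 0.05. The exact permutation test used log2(CPM + 0.5). Alternatives used limma 3.58.1 and DESeq2 1.42.0. The procedure was tested on simulated data. Between libraries of a genotype, chi-square per degree of freedom was 2.59 to 6.32, so no pair differed by counting error alone. The closest pairs were WT replicates 1 and 2 (2.70) and KO replicates 1 and 4 (2.59). This check compares counts only and cannot tell whether libraries came from the same mouse or culture. Transcript lengths, positions of windows and overlaps came from GENCODE M39, in which 11910 of 11911 gene IDs matched, and sequences from GRCm39.

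The genes and lists were chosen with earlier results of these data known. Genes named beyond the 9 are *Tdrd3*, *Foxp3*, cell type markers, those that passed in each list or had its smallest P per direction, the 3 most like the gene with the smallest P (by root-mean-square distance of centred log2 CPM), and the partners named after their values were seen. Library totals cover listed genes only.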

Additional observations from a re-analysis of the deposited data

Results flagged for a closer look

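*Gzmb* in WT replicate 3, at 9.25 CPM, stood far above the other 3 WT libraries (1.35 to 1.99 CPM), with a gap to the nearest of 0.919 of the group's range. *Cd38* in WT replicate 4, at 11.9 CPM, stood above the other WT libraries (7.12 to 7.86 CPM), with a gap of 0.846 of the range. These were the 2 found by Dixon's test among 40 groups of 4 libraries (20 genes in each genotype), and chance alone gives about 1 in 20 groups.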

How the results depend on the processing

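None of the 8 genes passed in the edgeR fit with genotype alone on all 8 libraries. On the same libraries, 1 (*Lrrc32*) passed with voom and quality weights and 1 (*Lrrc32*) with the replicate block. With a library left out, 0 to 1 passed. An unadjusted P below 0.05 was met by 3 of the 8 genes (*Lrrc32*, *Nt5e*, *Ebi3*), by 4 without WT replicate 4 (with *Gzmb*) and by 1 without KO replicates 1 and 4. It was also met by 3 without WT replicate 1, WT replicate 2 or KO replicate 1, but there *Gzmb* stood in place of *Ebi3*. Genotypes did not overlap in 1, in 2 with scaling by library size only (*Nt5e*, *Lrrc32*) and in 1 to 3 when a library was left out (3 without WT replicate 4 and 2 without KO replicate 3). Over all genes 30 passed, 81 with DESeq2, 95 with voom, 87 with the replicate block, 6 (without KO replicate 1) to 162 (without KO replicate 2) when a library was left out, and 3 without KO replicates 1 and 4. Log2 fold changes took the opposite sign for *Entpd1* without WT replicate 2 (0.0225) and without KO replicates 1 and 4 (0.0599), for *Itgav* without WT replicate 3 (-0.0007) and without KO replicate 3 (-0.0134), for *Itgb8* without WT replicate 1 (0.0327) and for *Gzmb* without WT replicate 3 (0.143). With a library left out they ranged from -0.324 to 0.0225 for *Entpd1*, -0.0134 to 0.0241 for *Itgav*, -0.269 to 0.0327 for *Itgb8* and -1.24 to 0.143 for *Gzmb*. *Nt5e* kept its direction in 16 alternatives (0.12 to 0.23), with an adjusted p of 0.0545 to 0.9998, *Ebi3* in 16 (0.15 to 0.25) and *Tgfb1* in 16 (-0.06 to -0.02). Same-numbered libraries of the genotypes did not deviate together over all tested genes (r of -0.05, 0.004, -0.04 and 0.07). These values cannot settle whether the libraries were prepared in pairs, and the labels give no pairing. The block is therefore given only here and beside *Lrrc32*. Removing KO replicates 1 and 4 was chosen after seeing the data. The filter of 10 counts in every library leaves *Itgb8* untested. The causes of these differences were not tested. The WT coefficient of variation was near counting error for *Itgb8* (28.03% against 26.04%) and above it for *Entpd1* (28.9% against 12.5%) and *Gzmb* (107.5% against 14.1%), and intervals and floors cover counting error only.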
